A study of Rattus norvegicus with 24 samples.

Results

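Rat hepatocytes, the metabolic cells of the liver, were followed in culture on collagen over the first step between sampled days. Cells on a single collagen gel at day 2 were set against cells on a single gel at day 1. The members of the comparison were the 6 arrays titled for the single gel at these days, 3 at day 2 and 3 at day 1, of 24 arrays in all. Each array measured 31042 probe sets of the rat transcriptome, control probe sets left out, and its values were deposited on a log2 scale.

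The monolayer arrays at day 2 and at day 1 came from hepatocytes on collagen-coated plates, in a serum-containing medium with epidermal growth factor, insulin, glucagon and hydrocortisone that was renewed daily. All groups shared this medium. In the sandwich cultures, used here only for the same step, a second collagen layer was laid over the cells a day after seeding, and the labels count the days of both cultures from that moment. The labels treat the monolayer as the unstable culture and the sandwich as the stable one, and name neither a strain nor an age of the rats. They do not tie the replicates to separate animals or cultures, so p-values measure only the spread between these samples, which may be technical.

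Isolated hepatocytes leave a tissue in which they are polarised, touch neighbours on several sides and are bathed in a thin matrix. On a stiff flat substrate they flatten, build actin stress fibres and gradually lose liver functions such as drug metabolism, a course known as dedifferentiation. Isolation itself also sets off a stress response with immediate early genes, inflammatory genes and antioxidant enzymes. An early culture may therefore carry both the aftermath of isolation and the first adaptation to the dish. The series holds no freshly isolated cells, so the part of either in these values was not tested.

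Between day 1 and day 2, Acta1 and Tagln, genes of the contractile actin cytoskeleton, had the largest rises in the monolayer, and genes of the antioxidant, interferon and endoplasmic reticulum stress responses fell more often than they rose. Genes of amino acid breakdown were called higher more often than lower. Of 37 genes of fatty acid oxidation and ketogenesis 9 were called lower and 1 higher, but 27 were not called. The median of that list was -0.03, and only 5 of the 9 falls kept the call without any 1 array. Of the 31042 probe sets, 1556 passed limma's moderated test at an adjusted p under 0.05 (5.01%), 755 of them higher at day 2 (2.43%) and 801 lower (2.58%). Counted as genes, with a gene read from its brightest probe set, 992 of 14217 passed (6.98%), 506 of them higher (3.56%) and 486 lower (3.42%). A change of at least 2-fold was reached by 54 rising genes (0.38%) and 27 falling ones (0.19%). In 3483 genes (24.5%) all 3 arrays of one day lay above the 3 arrays of the other. The median difference over all genes was 0.0016 on the log2 scale.

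The 6 arrays were alike in level, with medians of 5.57 to 5.65 and Pearson correlations of 0.9928 to 0.9964 within a day, against 0.9869 to 0.9938 between day 2 and day 1. Day 2 replicate 3 stood apart on the leading principal component of all arrays, with a score of 3.54 beside -2.09 and -2.02 for the other two day 2 arrays and -24.8, -22.3 and -21.5 for the day 1 arrays. Without it the count of called probe sets was 990, without day 1 replicate 1 it was 982 and without day 1 replicate 2 it was 1002, and only 278 of the 506 rising and 198 of the 486 falling genes kept their call without any 1 of the 6 arrays. The gene groups below are given with the number, or the names, of the called genes that kept the call in this way. Each count stands beside 6.98% of all genes called, 3.56% higher and 3.42% lower. The beta-actin controls, whose 3' signal less the 5' signal reflects RNA integrity, gave log2 values of 0.75, 0.81 and 0.81 at day 2 against 0.89, 0.89 and 0.80 at day 1, and the GAPDH controls gave 0.26, 0.24 and 0.20 at day 2 against 0.29, 0.21 and 0.19 at day 1. Their part in the results was not tested.

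The label of the cells held against their markers. Of 10 hepatocyte markers 9 were measured, and their mean log2 values were 8.57 or more at day 2 and 9.52 or more at day 1, Cyp2e1 being the lowest on both, all above 5.62, the median of all probe sets. Markers of other liver cells were near that median or below it: the array means of the list ran from 4.73 to 4.84 at day 2 and 4.68 to 4.81 at day 1 for 18 endothelial genes, from 5.02 to 5.27 at day 2 and 4.88 to 5.07 at day 1 for 20 stellate cell and fibroblast genes, and from 6.05 to 6.16 at day 2 and 5.99 to 6.14 at day 1 for 18 macrophage genes. A dim probe set has no detection call here, so a fold change is given only where both days were above 5.62, and otherwise the log2 difference alone. In such a mixed extract, fewer cells of a type and less RNA per cell cannot be told apart.

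**Figure D1:**
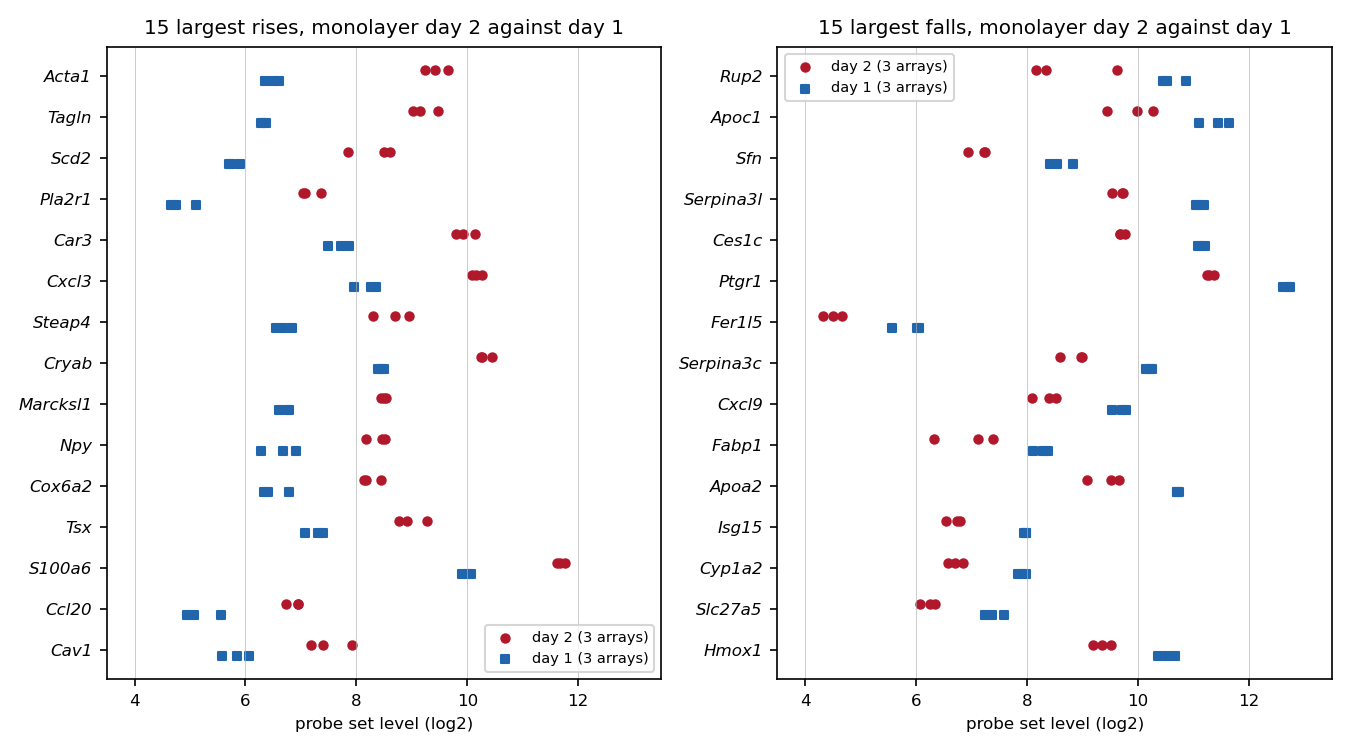
Log2 values of the 15 genes with the largest rise (left) and the 15 with the largest fall (right) among called genes whose arrays of the 2 days did not overlap, 1 point per array, day 2 and day 1 in different colours. Acta1 and Tagln stand furthest apart on the left, and day 2 replicate 1 of Rup2 (9.62) sits above its other two day 2 arrays on the right.

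The 2 largest rises were contractile genes. The 15 largest rises and falls were taken only from genes whose days did not overlap, so for them that separation is no further support. Acta1, the actin of skeletal muscle, had log2 values of 9.24, 9.41 and 9.65 at day 2, against 6.50, 6.35 and 6.60 at day 1. Every day 2 array was far above every day 1 array, a 7.72-fold rise (2.95 ± 0.30 on the log2 scale, SE, n = 3 each, adjusted p = 3.34e-07). Tagln, which encodes the actin-binding protein transgelin of smooth muscle, had 9.02, 9.15 and 9.47 at day 2, against 6.30, 6.28 and 6.37 at day 1. Its rise was 7.45-fold (2.90 ± 0.25, adjusted p = 3.58e-08), and again the days did not overlap. The smooth muscle actin gene Acta2 had 7.74, 7.46 and 7.52 at day 2, against 7.41, 7.57 and 7.54 at day 1, and its days overlapped (0.07 ± 0.26, adjusted p = 0.947).

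Of 45 measured genes of the actin cytoskeleton, 11 were called higher and none lower, against 3.56% and 3.42% of all genes, and the median difference of the list was 0.16 against 0.0016 over all genes. 10 of the 11 kept the call without any 1 array, Csrp1 being the exception (adjusted p = 0.0617 without day 2 replicate 1). The mean of the list over its 45 genes was 9.36 to 9.40 on the day 2 arrays and 9.02 to 9.08 on the day 1 arrays. List means are given here and below as description, since lists with few calls were apart as well. The integrin and focal adhesion list, with 4 of 44 called, had 8.03 to 8.10 at day 2 and 7.91 to 7.95 at day 1. Tmsb4x, thymosin beta 4, which binds actin monomers, had 13.28, 13.19 and 13.07 at day 2, against 12.38, 12.17 and 12.00 at day 1, a 1.99-fold rise (adjusted p = 8.26e-05). Moesin (Msn), which ties actin to the membrane, rose 1.75-fold (0.81 ± 0.11, adjusted p = 3.32e-05), filamin A (Flna), which crosslinks filaments, 1.68-fold (0.75 ± 0.12, adjusted p = 2.24e-04) and alpha-actinin 1 (Actn1) 1.82-fold (0.87 ± 0.15, adjusted p = 4.01e-04). All 3 had day 2 arrays entirely above their day 1 arrays.

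Serum response factor drives many contractile genes through the CArG box when monomeric actin is depleted, and YAP, held in the cytoplasm by cell contact and soft matrix, acts with TEAD factors at the letters GGAATG. The stretches before the starts of Acta1 and Ccn2, from RefSeq on build GRCr8, are shown because these genes made the largest rises of the 2 target lists. Capitals mark the CArG box, 94 bases before the start of Acta1, and the 3 GGAATG matches, 166, 101 and 92 bases before the start of Ccn2. The Acta1 stretch also holds 1 GGAATG match, read on the other strand and left unmarked.
Acta1 promoter, chr19:68784195-68784444 (minus strand): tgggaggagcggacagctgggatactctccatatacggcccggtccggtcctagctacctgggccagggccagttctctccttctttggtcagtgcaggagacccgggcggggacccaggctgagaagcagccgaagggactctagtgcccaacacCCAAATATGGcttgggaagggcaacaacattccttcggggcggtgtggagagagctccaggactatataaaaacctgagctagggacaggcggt
Ccn2 promoter, chr1:22624615-22624864 (minus strand): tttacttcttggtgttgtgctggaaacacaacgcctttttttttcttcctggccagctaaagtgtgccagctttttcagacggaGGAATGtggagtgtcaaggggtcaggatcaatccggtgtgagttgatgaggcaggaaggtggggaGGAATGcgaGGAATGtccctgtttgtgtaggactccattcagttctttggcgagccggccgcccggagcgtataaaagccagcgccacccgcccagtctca
A promoter sequence was matched by gene identifier for 11700 of the 14217 genes, and both strands were searched from 250 bases before the start to 50 after it, counting matches whether or not they overlapped another motif. The CArG box was found in 158 promoters (1.35%), in 7 of 25 serum response factor type targets (28%) and in 2 of 6 of those called, Acta1 and Cnn2. GGAATG was found in 1374 promoters (11.7%), in 6 of 18 YAP and TEAD type targets (33.3%) and in 1 of 4 of those called. Of 417 genes called higher with a promoter sequence, 6 held the CArG box (1.44%) and 57 held GGAATG (13.7%). Of 415 called lower, 4 held the CArG box (0.964%) and 29 held GGAATG (6.99%). The 1.44% lies near the share over all promoters. Both lists were made of genes known as targets of these factors, so their shares are a description. A match describes the letters only.

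Of 30 serum response factor type targets, 7 were called higher and none lower, with a median of 0.07, and 6 of the 7 kept the call without any 1 array. They were Acta1, Tagln, Ccn2, Filip1l, Cnn2, Flna and Csrp1, and 5 of them are also in the actin list. Filip1l, a filamin-interacting protein, had 8.17, 8.30 and 8.36 at day 2, against 6.68, 6.73 and 6.78 at day 1, a 2.92-fold rise with no overlap (1.55 ± 0.13, adjusted p = 3.51e-08). Calponin 2 (Cnn2), another actin-binding protein, rose 1.49-fold (0.58 ± 0.11, adjusted p = 0.00219).

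Among 29 YAP and TEAD type targets 4 were higher and 2 lower, with a median of 0.12, and all 6 kept the call without any 1 array. Ccn2, connective tissue growth factor, had 11.83, 11.77 and 12.12 at day 2, against 10.46, 10.32 and 9.95 at day 1, a 3.17-fold rise (1.66 ± 0.15, adjusted p = 4.8e-08). Ankrd1, a cardiac ankyrin repeat protein induced by stretch in muscle, had 7.13, 7.41 and 7.37 at day 2, against 5.95, 5.52 and 5.60 at day 1, and rose 3.05-fold (1.61 ± 0.21, adjusted p = 1.77e-05). The other risers were Myof, a membrane repair protein (1.37 ± 0.16, adjusted p = 4.98e-06), and the transcription factor Sox4, which had 10.10, 10.04 and 10.05 at day 2 against 8.78, 8.77 and 8.84 at day 1 (2.41-fold, adjusted p = 3.68e-05). The 7 probe sets of Sox4 gave differences of 0.16 to 1.27. The 2 that fell were Gadd45b, a stress-induced growth arrest gene also in the immediate early list (-0.97 ± 0.13, adjusted p = 3.57e-05), and Nt5e, the ectoenzyme that makes adenosine (-0.67 ± 0.13, adjusted p = 0.00213).

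**Figure D2:**
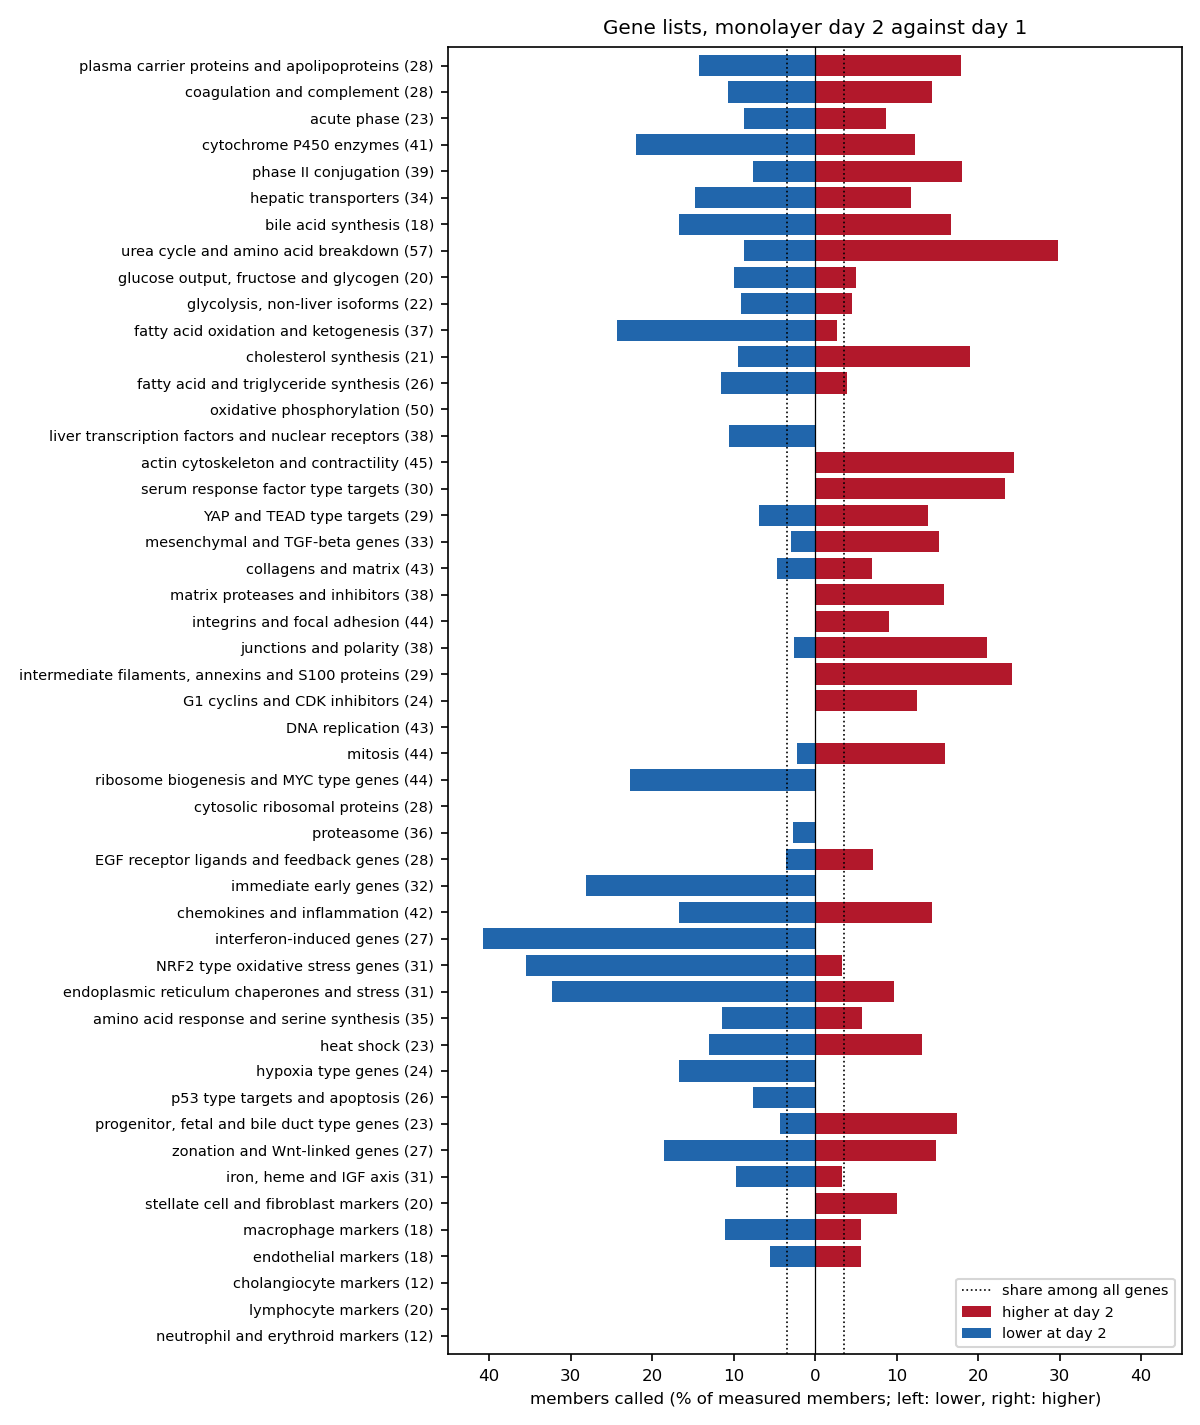
Share of measured members, in percent, called higher (right of 0) and lower (left of 0) at day 2 for each gene list, with the list's size in brackets and the shares over all genes (3.56% higher, 3.42% lower) drawn as dotted lines. Actin genes lie wholly to the right with 11 of 45, and interferon-induced genes wholly to the left with 11 of 27.

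Intermediate filament, annexin and S100 genes moved the same way. Of 29 measured, 7 were higher and none lower, with a median of 0.14, and 5 of the 7 kept the call without any 1 array. S100a6, a calcium-binding protein that is widespread in growing cells, had 11.62, 11.76 and 11.67 at day 2, against 10.02, 9.91 and 10.07 at day 1 (3.22-fold, 1.69 ± 0.10, adjusted p = 1.18e-10). S100a11, its relative, rose 1.98-fold (0.99 ± 0.07, adjusted p = 5.86e-09). Anxa1, annexin A1, had 6.32, 6.64 and 6.67 at day 2, against 4.99, 5.19 and 5.23 at day 1, all 3 day 1 arrays lying below the median of all probe sets (1.41 ± 0.16, adjusted p = 2.63e-06). Vim, the intermediate filament of mesenchymal cells, averaged 6.92 ± 0.08 at day 2, against 6.12 ± 0.18 at day 1 (SD, n = 3 each), without overlap (1.73-fold, adjusted p = 0.00136). Krt19, a keratin of bile ducts, stayed below the median of all probe sets in both, at 4.29, 4.36 and 4.25 at day 2 and 4.24, 4.18 and 4.18 at day 1 (adjusted p = 0.764).

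Of 33 mesenchymal and TGF-beta genes, 5 were called higher and 1 lower, with a median of 0.08, and 4 of the 6 kept the call without any 1 array. Fibronectin (Fn1), which hepatocytes also secrete into plasma, had 13.43, 13.22 and 13.36 at day 2, against 12.85, 12.86 and 12.75 at day 1 (1.43-fold, adjusted p = 1.7e-04). Follistatin (Fst), an inhibitor of activins, rose 1.59-fold (0.67 ± 0.11, adjusted p = 1.91e-04). Vim and Ccn2 were the other risers that kept the call.

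Of 43 collagens and other matrix genes 3 were higher and 2 lower (11.6% called, against 6.98% of all genes), a median of 0.07. On both days 21 of the 43 were below the median of all probe sets. Of the 5 called, 2 kept the call without any 1 array, both chains of laminin. They were Lama5, with 7.11, 7.17 and 7.33 at day 2 against 6.24, 6.37 and 6.39 at day 1 (1.83-fold, adjusted p = 1.89e-05), and Lamb1, with 6.20, 6.28 and 6.09 at day 2 against 5.22, 5.45 and 5.52 at day 1 (0.79 ± 0.14, adjusted p = 9.22e-04). The 3 probe sets of Lama5 ran from -0.04 to 0.87. Col1a1, the main collagen of scar tissue, had 5.37, 5.51 and 5.65 at day 2, against 5.24, 5.17 and 5.45 at day 1, with overlap (adjusted p = 0.514). Among 38 matrix proteases and their inhibitors 6 were higher and none lower, of which Timp1 (1.47-fold, adjusted p = 4.78e-04), Timp2 (0.99 ± 0.17, adjusted p = 3.84e-04) and the plasminogen activator Plat (1.57-fold, adjusted p = 0.00491) kept the call without any 1 array. Timp1 and Timp2 inhibit matrix metalloproteinases. The other probe set of Timp2 gave 0.17.

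Of 44 integrin and focal adhesion genes 4 were higher and none lower, a median of 0.08, and 3 kept the call without any 1 array. The share called, 9.09%, was near the 6.98% of all genes, and 40 members were not called. Cav1, caveolin 1, the coat protein of caveolae, had 7.18, 7.40 and 7.92 at day 2, against 5.57, 5.85 and 6.07 at day 1 (3.18-fold, 1.67 ± 0.21, adjusted p = 1.12e-05). Cd9, a tetraspanin that partners integrins, had 8.33, 8.73 and 8.63 at day 2, against 7.02, 7.15 and 7.43 at day 1 (2.58-fold, adjusted p = 1.27e-06). Rhoc, a small GTPase of cell motility, rose 1.55-fold (0.63 ± 0.09, adjusted p = 6.09e-05). Of 38 junction and polarity genes 8 were higher and 1 lower, a median of 0.02, and 4 of the 8 kept the call. Nectin2, a cell adhesion molecule, had 9.04, 9.10 and 9.05 at day 2, against 8.41, 8.31 and 8.28 at day 1 (1.66-fold, adjusted p = 3.58e-04), its 3 probe sets running from 0.18 to 0.73. Vil1, villin of microvilli, differed by 0.96 ± 0.15 (adjusted p = 1.24e-04). The gap junction gene Gjb1 was not called (0.17 ± 0.10, adjusted p = 0.438).

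**Figure D3:**
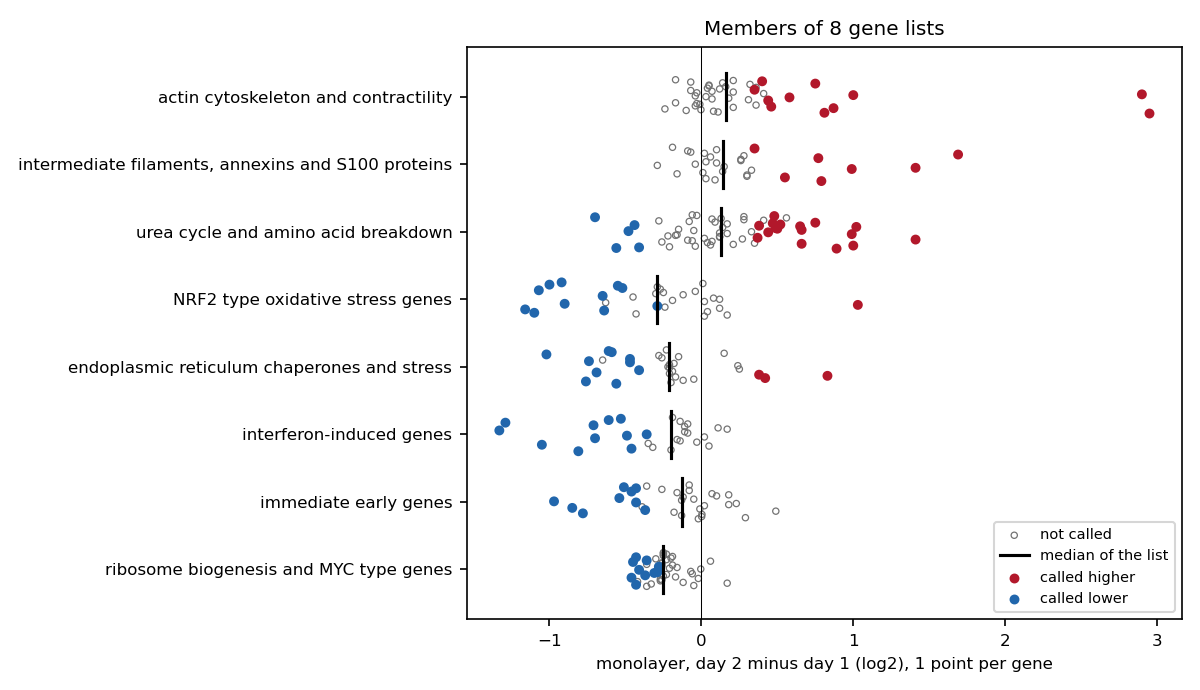
Log2 difference of day 2 minus day 1 in the monolayer (horizontal axis) for every measured member of 8 gene lists, 1 point per gene, with called members filled and a bar at each list's median. The actin list reaches up to 2.95 (Acta1), and the called members of the NRF2 type list lie below 0 except Gpx3 at 1.03.

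Ccnd1, cyclin D1, the G1 cyclin induced when hepatocytes are primed to divide, had 10.83, 10.84 and 10.79 at day 2, against 9.55, 9.37 and 9.47 at day 1. The days were 2.56-fold apart with no overlap (1.36 ± 0.16, adjusted p = 4.98e-06). Of 24 G1 genes 3 were higher and none lower, but Ccnd3 (adjusted p = 0.161 without day 1 replicate 3) and Cdk4 (0.06 without day 1 replicate 2) lost the call with 1 array left out. None of 43 DNA replication genes was called, with a median of 0.01 and differences from -0.28 to 0.31. Of 44 mitosis genes 7 were higher and 1 lower, a median of 0.16, and 22 were below the median of all probe sets on both days. Only Ect2, a regulator of cytokinesis (0.89 ± 0.16, adjusted p = 9.39e-04), and Ube2c, which tags mitotic cyclins for destruction (1.46-fold, adjusted p = 0.00116), among the 7 kept the call without any 1 array. Mki67 had 4.12, 4.06 and 3.77 at day 2, against 3.54, 3.63 and 3.62 at day 1, a small difference between dim values (adjusted p = 0.0234, and 0.137 without day 2 replicate 1).

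Of 44 ribosome biogenesis and MYC type genes none was higher and 10 were lower, a median of -0.25, with the lowest at -0.46. None of the 10 kept the call without any 1 array, and the count was 0 without day 2 replicate 3 or day 1 replicate 2, and 3 without day 1 replicate 1. The list's mean was 9.24 to 9.49 on the day 2 arrays and 9.56 to 9.66 on the day 1 arrays. Such a gap was not particular to this list. The list of glucose output, fructose and glycogen, with 3 of 20 called, had 8.69 to 8.74 at day 2 and 8.76 to 8.79 at day 1. Myc itself had 10.19, 10.15 and 9.77 at day 2, against 10.62, 10.39 and 10.19 at day 1, touching at 10.19 (-0.36 ± 0.13, adjusted p = 0.134, and 0.0217 with the replicate number as a block). None of 28 cytosolic ribosomal proteins was called, with differences from -0.22 to 0.11.

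Genes of the NRF2 type oxidative stress response fell more often than they rose. NRF2 is the factor that switches on antioxidant and detoxifying enzymes when its inhibitor KEAP1 is oxidised. Of 31 measured genes 11 were lower and 1 higher, a median of -0.29, and 9 of the 11 kept the call without any 1 array. The mean of the list was 9.79 to 9.95 on the day 2 arrays and 10.15 to 10.26 on the day 1 arrays. Hmox1, heme oxygenase, had 9.52, 9.19 and 9.35 at day 2, against 10.66, 10.53 and 10.37 at day 1 (2.24-fold lower, -1.16 ± 0.13, adjusted p = 1.31e-06). Gclc, the rate-limiting enzyme of glutathione synthesis, had 8.46, 8.43 and 8.46 at day 2, against 9.39, 9.53 and 9.43 at day 1 (2-fold lower, SE 0.10 on the log2 scale, adjusted p = 4.9e-07). Days were fully apart in both. Srxn1, sulfiredoxin, fell by 1.10 on the log2 scale (adjusted p = 2.92e-06), although its 3 probe sets ran from -1.11 to 0.17. The aldo-keto reductases Akr1b8 (-0.90 ± 0.10, adjusted p = 1.27e-06) and Akr7a3 (-0.92 ± 0.10, adjusted p = 1.64e-06) and the reductase Ptgr1, which lies outside the list and had 11.25, 11.29 and 11.38 at day 2 against 12.62, 12.74 and 12.72 at day 1 (2.61-fold lower, adjusted p = 9.6e-09), also fell. The riser was Gpx3, the secreted glutathione peroxidase, with 8.93, 8.44 and 8.47 at day 2 against 7.65, 7.66 and 7.45 at day 1 (2.04-fold, adjusted p = 6.25e-04). The letters TGACNNNGC, the core of the antioxidant response element, were in 1681 of 11700 promoters (14.4%), in 8 of 27 of the list (29.6%) and in 0 of 11 of the called genes with a promoter sequence, in this short window.

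Of 31 endoplasmic reticulum chaperones and stress genes, 10 fell and 3 rose, a median of -0.21, and 7 of the 10 and 2 of the 3 kept the call without any 1 array. This organelle folds secreted proteins, and its chaperones are induced together when unfolded proteins pile up. Creld2, a secreted stress-induced protein, had 8.80, 9.16 and 8.82 at day 2, against 9.92, 10.00 and 9.92 at day 1 (2.03-fold lower, -1.02 ± 0.12, adjusted p = 4.14e-06). Hsp90b1, the chaperone GRP94, had 11.46, 11.35 and 11.41 at day 2, against 12.16, 12.23 and 12.06 at day 1 (1.67-fold lower, -0.74 ± 0.08, adjusted p = 1.91e-06). In both genes the day 2 arrays all lay below the day 1 arrays. Sdf2l1 fell by 0.69 (adjusted p = 7.97e-06), Ddit3, the stress factor CHOP, by 0.76 (adjusted p = 8.92e-05) and Hspa5, the chaperone BiP, by 0.56 (adjusted p = 5.69e-04). Edem1, which sends misfolded glycoproteins to destruction, rose 1.77-fold (0.83 ± 0.17, adjusted p = 0.00298).

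The promoter stretches of Creld2 and Hsp90b1, from RefSeq on GRCr8, are shown because these chaperone-type genes hold the stress element, CCAAT and CCACG with 9 bases of any kind between them, in capitals, on one strand or the other. It lies 145 bases before the start of Creld2, and 176 and 72 bases before that of Hsp90b1.
Creld2 promoter, chr7:121789134-121789383 (plus strand): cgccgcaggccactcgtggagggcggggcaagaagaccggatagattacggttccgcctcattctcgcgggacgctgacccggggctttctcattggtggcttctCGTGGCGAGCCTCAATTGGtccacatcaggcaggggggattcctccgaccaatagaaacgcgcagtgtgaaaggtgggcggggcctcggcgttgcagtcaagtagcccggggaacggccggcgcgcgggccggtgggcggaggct
Hsp90b1 promoter, chr7:23012294-23012543 (minus strand): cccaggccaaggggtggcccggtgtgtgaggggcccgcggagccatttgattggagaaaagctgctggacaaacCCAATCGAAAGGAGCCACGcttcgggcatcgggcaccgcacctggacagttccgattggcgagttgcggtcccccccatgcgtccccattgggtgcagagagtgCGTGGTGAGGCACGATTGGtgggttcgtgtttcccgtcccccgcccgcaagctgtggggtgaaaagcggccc
The element was found in 17 of 11700 promoters (0.145%), in 7 of 25 of the list (28%) and in 4 of 13 of the called genes (30.8%), which were Hspa5, Hsp90b1, Dnajc3 and Creld2. Of the list's 7 genes with the element, the 3 that were not called were Calr (-0.28), Canx (-0.21) and Xbp1 (-0.05). The list holds genes known for this element, so its share is a description.

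Of 32 immediate early genes, which respond within minutes to injury or growth factors, 9 fell, none rose and 23 were not called. The median was -0.12, and 5 of the 9 kept the call without any 1 array. Fos (-0.02, adjusted p = 0.969), Jun (-0.13, adjusted p = 0.857), Egr1 (0.23, adjusted p = 0.36) and Ier2 (0.02, adjusted p = 0.974) were among those not called. Atf3, a repressor induced by many stresses, had 9.17, 9.29 and 9.16 at day 2, against 10.11, 10.09 and 9.98 at day 1 (1.8-fold lower, -0.85 ± 0.14, adjusted p = 2.42e-04). Gadd45g (-0.78 ± 0.10, adjusted p = 1.24e-05) and Gadd45a (-0.43 ± 0.08, adjusted p = 0.00108) fell with Gadd45b. In the amino acid response list 4 of 35 were lower and 2 higher, a median of -0.01, and 3 of the 4 and 1 of the 2 kept the call without any 1 array. Slc3a2 and Slc7a11 encode the heavy and light chain of the cystine transporter. Slc3a2 had 11.26, 11.30 and 11.16 at day 2, against 12.30, 12.45 and 12.30 at day 1 (2.17-fold lower, adjusted p = 1.05e-07), and Slc7a11 had 5.70, 6.11 and 5.60 at day 2, against 6.93, 7.06 and 6.65 at day 1 (2.1-fold lower, adjusted p = 5.82e-05). Psat1, of serine synthesis, rose 1.35-fold (adjusted p = 0.00194). Of 24 hypoxia type genes 4 were lower and none higher, and only Pdk1, which restrains entry of pyruvate into mitochondria, kept the call without any 1 array (-0.47 ± 0.10, adjusted p = 0.00425). With the mean over its 2 probe sets Pdk1 was not called (-0.24, adjusted p = 0.144).

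Interferon-induced genes fell without an exception among those called. These genes answer viral RNA and interferon. Of 27 measured 11 were lower and none higher, a median of -0.20, 6 of the 11 kept the call without any 1 array, and the count was 6 without day 1 replicate 1 and 7 without day 2 replicate 3. The mean of the list was 7.52 to 7.62 on the day 2 arrays and 7.92 to 7.95 on the day 1 arrays. Isg15, a ubiquitin-like protein, had 6.79, 6.73 and 6.54 at day 2, against 7.95, 7.99 and 7.99 at day 1 (2.45-fold lower, -1.29 ± 0.14, adjusted p = 1.27e-06). Cxcl9, a chemokine for T cells, had 8.40, 8.52 and 8.09 at day 2, against 9.78, 9.71 and 9.53 at day 1 (2.52-fold lower, adjusted p = 8.76e-08). The factors that drive the response, Irf7, with 7.63, 7.61 and 7.57 at day 2 against 8.32, 8.40 and 8.21 at day 1 (1.63-fold lower, adjusted p = 3.26e-04), and Irf9 (-0.70 ± 0.12, adjusted p = 4.33e-04), fell as well. Irf7 and Isg15 had day 2 arrays wholly below the day 1 arrays.

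The stretch before the start of Irf7, from RefSeq on GRCr8, is shown because it carries the interferon response motif, GAAA repeated after 2 bases of any kind, read here on the other strand and set in capitals, 69 bases before the start.
Irf7 promoter, chr1:205800024-205800273 (minus strand): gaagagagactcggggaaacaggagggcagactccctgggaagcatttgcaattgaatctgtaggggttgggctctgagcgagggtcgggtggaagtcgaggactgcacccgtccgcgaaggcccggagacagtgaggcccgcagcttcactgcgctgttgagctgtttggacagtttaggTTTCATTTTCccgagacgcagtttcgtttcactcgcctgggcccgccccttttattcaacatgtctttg
This motif was in 350 of 11700 promoters (2.99%), in 15 of 22 promoters of the list (68.2%) and in 7 of 9 of the called ones (77.8%), a list that holds genes known for it.

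Inflammatory genes split. Of 42 chemokines and inflammation genes 6 were higher and 7 lower, a median of 0.13, and 4 of the 6 and 6 of the 7 kept the call without any 1 array. The neutrophil chemokine Cxcl3 had 10.26, 10.15 and 10.09 at day 2, against 8.26, 7.96 and 8.36 at day 1 (3.92-fold, 1.97 ± 0.14, adjusted p = 1.39e-09), while its 5 probe sets ran from -0.06 to 2.09. Ccl20, which draws dendritic and T helper cells, had 6.95, 6.94 and 6.73 at day 2, against 5.08, 4.94 and 5.56 at day 1 (1.68 ± 0.14, adjusted p = 3.58e-08). Both were fully apart between the days. Steap4, a metalloreductase induced by inflammation, had 8.70, 8.94 and 8.30 at day 2, against 6.84, 6.67 and 6.55 at day 1 (3.89-fold, adjusted p = 1.03e-04). Other inflammatory genes fell. The chemokine Ccl3 had 6.26, 6.45 and 6.28 at day 2, against 6.89, 7.26 and 7.17 at day 1 (1.71-fold lower, adjusted p = 4.06e-05), the cytokine gene Il1b had 5.26, 5.48 and 5.62 at day 2, against 6.47, 6.22 and 6.19 at day 1 (-0.83 ± 0.10, adjusted p = 7.31e-06), and Ccl4 fell by 0.56 (adjusted p = 6.76e-04). Of the 18 macrophage markers Cd14 fell (-0.69 ± 0.08, adjusted p = 2.92e-06), Cd68 fell (-0.53 ± 0.12, adjusted p = 0.00772, and 0.0838 without day 1 replicate 2) and Lyz2 rose (1.00 ± 0.15, adjusted p = 1.25e-04), the median of the list was 0.04 and 7 of them were below 5.62 on both days. The part of macrophages in these values was not tested.

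Liver functions did not move as one. Among 28 plasma carrier proteins and apolipoproteins 5 were higher and 4 lower, a median of -0.0044, and 8 of the 9 kept the call without any 1 array. Apoa1, the main protein of high density lipoprotein, had 13.38, 13.55 and 13.52 at day 2, against 12.37, 12.38 and 12.27 at day 1 (2.21-fold, 1.14 ± 0.09, adjusted p = 9.6e-09). Its partner Apoa2 moved the other way, with 9.66, 9.52 and 9.09 at day 2, against 10.74, 10.71 and 10.70 at day 1 (2.45-fold lower, -1.29 ± 0.15, adjusted p = 4.88e-06). Apoc1, an inhibitor of lipoprotein clearance, fell too, with 10.27, 9.98 and 9.45 at day 2 against 11.65, 11.45 and 11.10 at day 1 (2.83-fold lower, adjusted p = 1.39e-04). Ttr, transthyretin, carries thyroid hormone and vitamin A, and had 13.06, 13.06 and 13.07 at day 2, against 12.62, 12.55 and 12.40 at day 1 (1.45-fold, adjusted p = 3.12e-05). Pon1, the paraoxonase of plasma, fell by 0.77 (adjusted p = 4.48e-05), its 2 probe sets giving -0.77 and -0.06. Alb had 15.01, 15.04 and 15.01 at day 2, against 14.98, 15.01 and 15.01 at day 1, next to the highest value on any of the 6 arrays, 15.04 (adjusted p = 0.932).

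Of 28 coagulation and complement genes 4 rose and 3 fell, of which F5 (1.41-fold, adjusted p = 0.00588), Pros1 (1.27-fold, adjusted p = 0.00672) and, falling, the complement gene C9 (-0.81 ± 0.15, adjusted p = 0.00116) kept the call without any 1 array. The acute phase genes Crp, at 10.82 ± 0.16 on day 2 against 10.11 ± 0.14 on day 1 (SD, n = 3 each, 1.64-fold, adjusted p = 8.99e-04), and A2m (1.87-fold, adjusted p = 0.00112) rose, and Cebpd, a factor of that response, fell (-0.70 ± 0.13, adjusted p = 0.00169, with 3 probe sets from -0.70 to 0.01). These 3 and Itih4 (adjusted p = 0.0259, and 0.13 without day 2 replicate 3) were the called members of 23. The serine protease inhibitors Serpina3l (2.71-fold lower, adjusted p = 8.76e-08) and Serpina3c (2.54-fold lower, adjusted p = 1.3e-07) were among the 15 largest falls.

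Cytochrome P450 enzymes, which oxidise drugs, steroids and bile acids, numbered 41, of which 9 fell and 5 rose, with a median of 0.03, and 7 of the 9 and 3 of the 5 kept the call without any 1 array. Cyp1a2, which metabolises caffeine, had 6.85, 6.57 and 6.70 at day 2, against 7.98, 7.91 and 7.84 at day 1 (2.3-fold lower, -1.20 ± 0.10, adjusted p = 1.72e-08). Cyp2e1, the ethanol-inducible form, had 8.97, 8.61 and 8.12 at day 2, against 9.67, 9.63 and 9.27 at day 1 (1.94-fold lower, adjusted p = 0.00163). Day 2 replicate 3 was the lowest array of Cyp2e1. Cyp2d2 (-0.92 ± 0.12, adjusted p = 2.3e-05), Cyp2d3 (-0.90 ± 0.14, adjusted p = 2.02e-04) and the retinoic acid hydroxylase Cyp26a1 (-1.09 ± 0.16, adjusted p = 7.25e-05) fell too, although probes may not separate close P450 paralogs. Cyp3a23-3a1, a main drug-metabolising form, was not called (0.10 ± 0.16, adjusted p = 0.854), and Cyp7a1, the rate-limiting enzyme of bile acid synthesis, was dim on both days (4.39, 4.44 and 4.62 at day 2, 4.57, 4.26 and 4.49 at day 1).

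Conjugating enzymes leaned the other way, with 7 of 39 higher and 3 lower, a median of 0.11, and 5 of the 7 and 1 of the 3 keeping the call without any 1 array. Sult1a1, a phenol sulfotransferase, had 11.45, 11.64 and 11.66 at day 2, against 9.88, 10.02 and 9.98 at day 1 (3.09-fold, 1.63 ± 0.10, adjusted p = 2.83e-10). Sult1b1, which sulfates thyroid hormone, had 12.05, 12.08 and 11.85 at day 2, against 10.87, 10.72 and 10.61 at day 1 (2.4-fold, adjusted p = 1.27e-06). Both rises were larger than any spread within a day. Gstk1, a mitochondrial and peroxisomal glutathione transferase, fell 1.88-fold (-0.91 ± 0.13, adjusted p = 3.66e-05). Ces1c, a carboxylesterase, had 9.68, 9.76 and 9.67 at day 2, against 11.08, 11.14 and 11.21 at day 1 (2.71-fold lower, adjusted p = 9.6e-09), with its other probe set at 0.20.

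Of 34 hepatic transporters 4 rose and 5 fell, a median of -0.10. Of the 4 risers Slc22a7 alone kept the call without any 1 array, and 4 of the 5 that fell did: Slc27a5, which activates bile acids and fatty acids, with 6.25, 6.35 and 6.07 at day 2 against 7.58, 7.37 and 7.25 at day 1 (2.26-fold lower, -1.18 ± 0.15, adjusted p = 1.49e-05), the phosphate and urate transporters Slc17a1 (-0.47 ± 0.09, adjusted p = 0.00216) and Slc17a3 (-0.76 ± 0.14, adjusted p = 0.00114), and the basolateral exporter Abcc3 (-0.64 ± 0.11, adjusted p = 6.27e-04). The bile acid uptake carrier Slc10a1 (0.35 ± 0.17, adjusted p = 0.316) and the bile salt export pump Abcb11 (-0.38 ± 0.16, adjusted p = 0.226) were not called. Of 18 bile acid synthesis genes 3 were higher and 3 lower, 2 of the higher and all 3 lower ones keeping the call without any 1 array, among them Akr1c14, a hydroxysteroid dehydrogenase (1.72-fold higher, adjusted p = 4.82e-06), and Amacr, a racemase of side chain oxidation (-0.59 ± 0.11, adjusted p = 9.83e-04).

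Genes of amino acid breakdown and the urea cycle were called higher more often than lower. Hepatocytes use these enzymes to burn amino acids and to turn ammonia into urea. Of 57 genes 17 were higher and 5 lower, a median of 0.13, and 14 of the 17 and 4 of the 5 kept the call without any 1 array. The list's mean was 8.92 to 9.05 on the day 2 arrays and 8.74 to 8.82 on the day 1 arrays. Cps1, the entry enzyme of the urea cycle, had 11.52, 11.44 and 11.47 at day 2, against 10.54, 10.65 and 10.57 at day 1 (1.85-fold, 0.89 ± 0.13, adjusted p = 9.55e-05). Uroc1, of histidine breakdown, had 7.75, 7.82 and 7.60 at day 2, against 6.13, 6.43 and 6.40 at day 1 (2.65-fold, adjusted p = 2.06e-05). The day 2 arrays were the higher ones throughout in both. Tdo2, the tryptophan dioxygenase (1.98-fold, adjusted p = 5.94e-06), Aass, of lysine breakdown (2-fold, adjusted p = 2.32e-05), and Arg1, arginase, the last enzyme of the cycle (1.58-fold, adjusted p = 3.89e-04), rose too. Asl, the step before arginase, fell instead, with 10.50, 10.55 and 10.34 at day 2 against 11.19, 11.24 and 11.06 at day 1 (1.62-fold lower, adjusted p = 1.04e-05), and Oat, ornithine aminotransferase, fell by 0.56 (adjusted p = 4.3e-05). Tat, tyrosine aminotransferase, had 11.55, 11.39 and 11.42 at day 2, against 11.08, 10.94 and 10.83 at day 1 (adjusted p = 0.014, and 0.0775 without day 1 replicate 3).

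Ugp2, which makes the glucose donor for glycogen, had 11.37, 11.30 and 11.32 at day 2, against 12.32, 12.44 and 12.42 at day 1 (2.09-fold lower, -1.06 ± 0.09, adjusted p = 3.58e-08). With the glycogen branching enzyme Gbe1 (-0.49 ± 0.09, adjusted p = 0.00165) and the rising Pfkfb1, which sets fructose 2,6-bisphosphate (1.62-fold, adjusted p = 2.06e-04), it made up the 3 called genes of 20, which all kept the call without any 1 array. Pck1, the rate-limiting enzyme of glucose output, overlapped between the days, with 8.19, 8.33 and 8.75 at day 2 against 8.73, 8.82 and 8.69 at day 1 (adjusted p = 0.342). Of 22 glycolysis genes Gpi (-0.71 ± 0.09, adjusted p = 4.98e-06) and Tkt (-0.52 ± 0.10, adjusted p = 0.00163) fell, and Ldhb, the heart form of lactate dehydrogenase, rose 2.18-fold (adjusted p = 1.31e-06), with 6.86, 6.91 and 6.88 at day 2 against 5.85, 5.82 and 5.60 at day 1. These 3 kept the call without any 1 array.

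Of 37 fatty acid oxidation and ketogenesis genes 9 fell, 1 rose and 27 were not called, a median of -0.03. Of the 9, 5 kept the call without any 1 array, while Ppara, Hadhb, Cyp4a1 and Plin2 did not. Fabp1, the liver fatty acid binding protein, had 7.39, 7.11 and 6.32 at day 2, against 8.37, 8.29 and 8.11 at day 1 (2.5-fold lower, -1.32 ± 0.18, adjusted p = 3.44e-05). Its day 2 arrays were all below day 1, with replicate 3 the lowest. Bdh1, which makes the ketone body hydroxybutyrate, fell by 0.85 (adjusted p = 8.99e-05), Pdk4, which spares pyruvate during fasting, by 1.05 (adjusted p = 6.04e-04, and -0.22 on its other probe set) and Angptl4, an inhibitor of lipoprotein lipase, by 0.59 (adjusted p = 3.82e-04). Hao2, a peroxisomal hydroxy acid oxidase, was the riser (1.57-fold, adjusted p = 5.76e-04). None of 50 oxidative phosphorylation genes was called, with differences from -0.13 to 0.19.

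Of 21 cholesterol synthesis genes 4 rose and 2 fell, a median of 0.05. The risers Lss (1.42-fold, adjusted p = 0.00563) and Nsdhl (1.34-fold, adjusted p = 0.00309), both late steps of the sterol ring, and the fallers Tm7sf2, a sterol reductase (-0.57 ± 0.10, adjusted p = 3.79e-04), and Insig2, which holds the sterol sensor in the endoplasmic reticulum (-0.53 ± 0.08, adjusted p = 1.02e-04, and -0.17 on its other probe set), kept the call without any 1 array. In fatty acid and triglyceride synthesis 1 of 26 was higher, Fads1 (1.48-fold, adjusted p = 0.005), and of 3 lower only G0s2, an inhibitor of fat breakdown, kept the call (-0.60 ± 0.12, adjusted p = 0.00258). Scd2, a fatty acid desaturase that is not the main form of adult liver, was the third largest rise of all genes, with 8.50, 8.60 and 7.85 at day 2 against 5.91, 5.71 and 5.73 at day 1 (5.79-fold, 2.53 ± 0.24, adjusted p = 1.61e-07), but its 4 probe sets ran from 0.03 to 2.53.

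Of 38 measured transcription factors of the liver none was higher and 4 were lower (10.5% called, against 6.98% of all genes), a median of -0.03, and only Cebpd kept the call without any 1 array. Hnf4a, the central factor of hepatocyte identity, had 10.53, 10.32 and 10.40 at day 2, against 10.41, 10.49 and 10.25 at day 1, with overlap (0.03 ± 0.10, adjusted p = 0.928). Cebpa had 8.85, 8.34 and 7.98 at day 2, against 9.44, 8.94 and 8.78 at day 1, its highest day 2 array lying above its lowest day 1 array (-0.66 ± 0.24, adjusted p = 0.135). With the replicate number as a block the adjusted p of Cebpa was 1.32e-04. In the list of zonation and Wnt-linked genes 4 of 27 were higher and 5 lower, and all 9 kept the call without any 1 array. Those that fell were Cyp1a2, Cyp2e1, Glul, Oat and Rgn, and those that rose were Cps1 and Arg1, of the urea cycle, Gulo and Cyp27a1. The members were not sorted by zone, so no direction is read for a zone of the liver. The other 18 members were not called, and the median of the list was 0.03. Asl, a urea cycle gene outside this list, fell (-0.7, adjusted p = 1.04e-05). Glul, glutamine synthetase, had 10.63, 10.64 and 10.59 at day 2, against 10.98, 10.96 and 11.02 at day 1 (1.29-fold lower, adjusted p = 0.0107), with 3 probe sets from -0.37 to -0.18.

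Of 23 progenitor and fetal genes 4 rose and 1 fell, a median of 0.10, and all 5 kept the call without any 1 array. Besides Sox4 the risers were Cd24, a surface marker of liver progenitors, with 5.75, 5.99 and 5.03 at day 2 against 4.09, 3.86 and 4.11 at day 1 (1.57 ± 0.21, adjusted p = 2.31e-05), Prom1, with 7.55, 7.73 and 7.73 at day 2 against 6.20, 6.81 and 6.51 at day 1 (2.24-fold, adjusted p = 1.01e-06), and Aldh1a1, a retinaldehyde dehydrogenase (1.76-fold, adjusted p = 1.61e-06). Afp, the fetal albumin, averaged 7.01 ± 0.18 at day 2, against 7.10 ± 0.05 at day 1 (SD, n = 3 each), with overlap (adjusted p = 0.768). None of 12 cholangiocyte, 20 lymphocyte or 12 neutrophil and erythroid markers was called. Of the 20 stellate cell and fibroblast markers Reln (0.71, adjusted p = 3.7e-04, and 0.26 on its other probe set) and Rgs5 (0.53, adjusted p = 0.00493) rose, and of the 18 endothelial markers Esam was called higher (adjusted p = 0.158 without day 2 replicate 3) and Fcgr2b lower (0.0976 without the same array). The part of these cells in the results was not tested.

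Of 23 heat shock genes 3 were higher and 3 lower (26.1% called, against 6.98% of all genes), a median of -0.16, and Cryab and Dnajb4, a co-chaperone of HSP70 (0.58, adjusted p = 8.01e-05), kept the call without any 1 array. Of 28 genes of epidermal growth factor signalling 2 were higher and 1 lower (10.7% called), and only the ligand betacellulin (Btc) kept the call (0.64, adjusted p = 0.00162). Of 31 iron, heme and IGF genes 1 was higher, Igfbp7 (0.98, adjusted p = 7.19e-05), and 3 were lower, of which all but Slc40a1 kept the call without any 1 array, among them Alas1, the rate-limiting enzyme of heme synthesis (-0.60, adjusted p = 1.44e-04). Of 26 p53 type genes none was higher and 2 were lower (7.69% called), Gadd45a and Tp53inp1 (adjusted p = 0.00508, and 0.0644 without day 1 replicate 1). Of 36 proteasome genes 1 was lower, the interferon-induced subunit Psmb8, which did not keep the call.

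The 15 largest rises also held genes not described above. Pla2r1, a receptor for secreted phospholipase A2, differed by 2.32 ± 0.21 (7.03, 7.37 and 7.07 at day 2, 4.66, 5.10 and 4.74 at day 1, adjusted p = 7.95e-08). Car3, a carbonic anhydrase of muscle, fat and male rat liver, had 9.92, 9.80 and 10.13 at day 2, against 7.86, 7.48 and 7.73 at day 1 (4.77-fold, 2.25 on the log2 scale, adjusted p = 4.06e-09), while its other probe set gave 1.11. Marcksl1, a membrane protein that binds actin, had 8.45, 8.54 and 8.49 at day 2, against 6.76, 6.61 and 6.79 at day 1 (3.41-fold, adjusted p = 8.76e-08). Each was higher on every day 2 array, which the choice of the 15 required. Npy, a neuropeptide (3.38-fold, adjusted p = 2.06e-07), and Cox6a2, the muscle form of a cytochrome oxidase subunit (3.36-fold, adjusted p = 1.79e-09), rose as well, and Cryab, of the heat shock list, a small protein that protects filaments, had 10.25, 10.27 and 10.44 at day 2 against 8.50, 8.45 and 8.39 at day 1 (3.67-fold, 1.87 ± 0.10, adjusted p = 4.59e-11). On the falling side Rup2 led, a urinary protein, with 9.62, 8.35 and 8.16 at day 2 against 10.86, 10.45 and 10.52 at day 1 (3.73-fold lower, adjusted p = 9.55e-05), its 4 probe sets giving -2.03 to -0.25. Sfn, the stress-induced protein stratifin, had 7.22, 7.24 and 6.94 at day 2, against 8.54, 8.83 and 8.41 at day 1 (2.75-fold lower, adjusted p = 3.63e-06).

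In the sandwich 1802 probe sets were called between day 2 and day 1 (5.81%), 2.78% of all being higher and 3.02% lower, and 8.15% of genes were called. Of the 506 genes that rose in the monolayer, 236 were also called higher in the sandwich, 46.6% of the monolayer's list and 39.8% of the sandwich's 593 (4.17% of all genes), and 5 were called lower there. Of the 486 that fell, 244 were also called lower, 50.2% of the monolayer's and 43.2% of the sandwich's 565 (3.97% of all genes), and 2 were called higher. Over 14217 genes the 2 changes had a Pearson correlation of 0.622, from cultures that share no array but one normalization, given as a description. Tested directly, the change of the monolayer differed from that of the sandwich in 116 genes (0.816%), more positive in 79 (0.556%) and more negative in 37 (0.26%), and in 168 probe sets (0.541%), 113 of them more positive (0.364%) and 55 more negative (0.177%). With the replicate number as a block the difference was called in 261 probe sets, 92 of them more negative. A difference of at least 2-fold was reached by 38 probe sets upward (0.122%) and 15 downward (0.0483%), and by 25 genes upward (0.176%) and 11 downward (0.0774%).

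**Figure D4:**
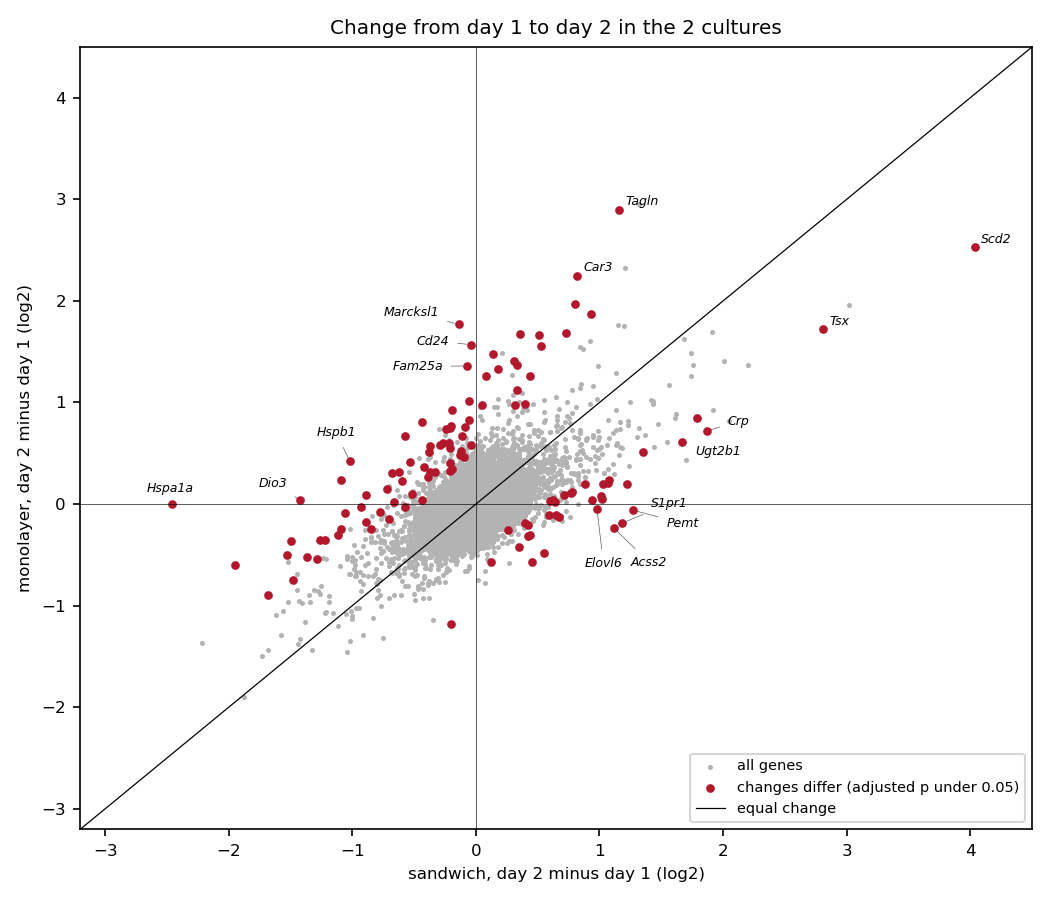
Log2 difference of day 2 minus day 1 in the monolayer (vertical axis) against the same in the sandwich (horizontal axis), 1 grey point for each of 14217 genes, with the 116 genes whose changes differed between the cultures in red and the most different ones named. Tagln and Marcksl1 lie above the line of equal change, Scd2 and Crp below it, and Hspa1a at the left, with -2.46 in the sandwich.

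The genes with the more positive change in the monolayer included cytoskeletal and heat shock genes. Marcksl1 rose by 1.77 ± 0.16 in the monolayer and changed by -0.14 in the sandwich (adjusted p = 0.804), a difference of 1.92 (adjusted p = 9.61e-05). Tagln rose by 2.90 in the monolayer and by 1.16 in the sandwich, a difference of 1.74 (adjusted p = 0.0159, but 0.0554 without monolayer day 2 replicate 3 and 0.0602 without sandwich day 2 replicate 1). For Acta1 the difference, 1.63, did not pass (adjusted p = 0.0917). Ccn2 rose by 1.66 in the monolayer and by 0.51 in the sandwich (difference 1.15, adjusted p = 0.00516). Of the 45 actin genes 6 differed in this direction and none in the other, among them Msn, which rose by 0.81 in the monolayer and fell by 0.44 in the sandwich (difference 1.25, adjusted p = 1.43e-04), and Flna (0.75 in the monolayer, -0.21 in the sandwich, adjusted p = 0.00447). Of 23 heat shock genes 5 differed. Hspa1a, the inducible HSP70, had 8.09, 8.19 and 8.25 at day 2, against 8.27, 8.24 and 8.04 at day 1 in the monolayer (adjusted p = 0.999), and fell by 2.46 in the sandwich (difference 2.45, adjusted p = 7.53e-08). Hspb1, the small heat shock protein HSP27, fell by 1.02 in the sandwich and was 0.42 higher in the monolayer (difference 1.44, adjusted p = 6.47e-05), its monolayer call being lost in 5 of the 6 fits with 1 monolayer array left out, up to an adjusted p of 0.175. Fst, of the activin pathway, rose by 0.67 in the monolayer and fell by 0.57 in the sandwich (difference 1.24, adjusted p = 9.76e-05). Cd24 rose by 1.57 in the monolayer and changed by -0.04 in the sandwich (difference 1.61, adjusted p = 0.00684).

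The genes with the more negative change in the monolayer included lipid genes that were called higher in the sandwich. Of 21 cholesterol synthesis genes 17 rose in the sandwich and 4 in the monolayer, and for 11 the difference itself passed, every one of them with the smaller or more negative change in the monolayer. The median of the list was 0.05 in the monolayer and 0.65 in the sandwich. Lss rose by 0.51 in the monolayer and by 1.35 in the sandwich (difference -0.85, adjusted p = 0.00687), and Tm7sf2 fell by 0.57 in the monolayer and rose by 0.45 in the sandwich (difference -1.02, adjusted p = 2.61e-04). In fatty acid and triglyceride synthesis 4 of 26 differed in this direction. Acss2, which makes acetyl-CoA from acetate, had 9.29, 9.18 and 8.97 at day 2, against 9.47, 9.32 and 9.38 at day 1 in the monolayer and rose by 1.12 in the sandwich (difference -1.36, adjusted p = 1.43e-04). Pemt, which makes phosphatidylcholine, changed by -0.06 in the monolayer and rose by 1.27 in the sandwich (difference -1.32, adjusted p = 3.64e-04). Elovl6, a fatty acid elongase, behaved likewise (-0.05 in the monolayer, 0.98 in the sandwich, adjusted p = 0.00171). Crp rose in both, by 0.72 in the monolayer and by 1.87 in the sandwich (difference -1.16, adjusted p = 0.00171). In the amino acid list, where 17 of 57 rose in the monolayer and 32 in the sandwich, the difference passed for 2.

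No such difference was called for 2 of the stress lists. For the NRF2 type list 11 of 31 were lower in each culture, and for the endoplasmic reticulum list 10 of 31 in the monolayer and 13 in the sandwich, and no member of either list passed the test of the difference. Only 0.816% of all genes passed that test, so the lack of calls in lists of 31 lies near the share over all genes. Hmox1 fell by 1.16 in the monolayer and by 1.38 in the sandwich, and Hsp90b1 by 0.74 in the monolayer and by 0.79 in the sandwich. Of the 27 interferon-induced genes 11 fell in the monolayer and 13 in the sandwich, with 1 difference called.

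**Figure D5:**
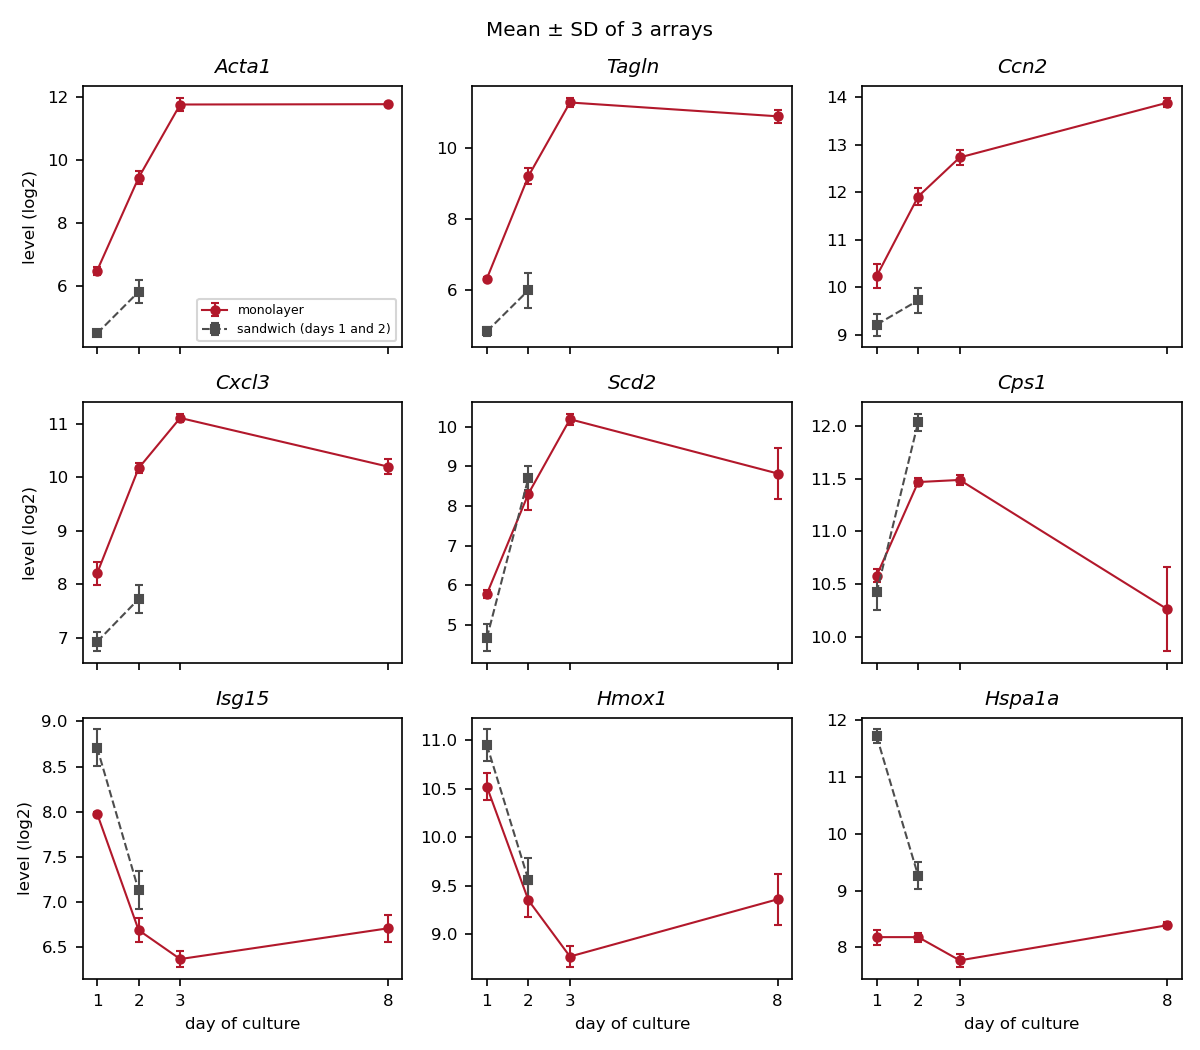
Mean log2 level (vertical axis) of 9 genes by day of culture (horizontal axis), with bars of 1 SD over 3 arrays, for the monolayer at days 1, 2, 3 and 8 (circles) and the sandwich at days 1 and 2 (squares). Acta1 and Tagln climb further between day 2 and day 3 in the monolayer, Cps1 is lower at day 8 than at day 2, and Hmox1 has nearly equal means at days 2 and 8.

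Values on later days put the step in its course. Since day 3 and day 8 are set against the same day 2 arrays, each difference is given on its own. Between day 3 and day 2 1560 probe sets were called in the monolayer (5.03%), and 7.26% of genes were, 3.45% higher and 3.81% lower. Acta1 rose by a further 2.32 at day 3 (adjusted p = 1.5e-05) and Tagln by 2.08 (adjusted p = 5.9e-06). Of the 45 actin genes 20 were called higher at day 3 than at day 2 and none lower. Vim was 1.84 higher at day 3 (adjusted p = 2.08e-08) and 5.94 higher at day 8 (adjusted p = 3.1e-19), and Anxa1 2.73 higher at day 3 (adjusted p = 9.09e-11) and 5.67 higher at day 8 (adjusted p = 2.99e-18). Krt19, not called at day 2, was 0.22 higher at day 3 (adjusted p = 0.343) and 3.67 higher at day 8 (adjusted p = 4.82e-18).

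Some rises from day 1 to day 2 had turned by day 8. Cps1 differed by 0.02 from day 2 at day 3 (adjusted p = 0.985) and changed by -1.21 at day 8 (adjusted p = 1.17e-07), and Mat1a, which makes the methyl donor of the liver, changed by -2.06 from day 2 to day 8 (adjusted p = 4.6e-13) after a rise of 0.65 in the first step (adjusted p = 4.31e-04). Tsx had risen by 1.72 (3.3-fold, adjusted p = 7.13e-08) and changed by -1.11 from day 2 to day 8 (adjusted p = 4.93e-06). Others that fell went on falling: relative to day 2, Serpina3l changed by -0.84 at day 3 and -2.40 at day 8, Ces1c by -1.45 at day 3 and -3.51 at day 8, and Apoa2 by -1.34 at day 3 and -3.14 at day 8. Hmox1 fell further at day 3, by 0.58 (adjusted p = 0.00648), and differed from day 2 by 0.0041 at day 8 (adjusted p = 0.99). Atf3, which fell in the first step, differed by 0.06 from day 2 at day 3 (adjusted p = 0.928) and was 1.13 higher at day 8 (adjusted p = 6.13e-07).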

How the data were processed

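Gene expression was measured on Affymetrix rat arrays, 1 array per sample, 3 for each of 8 groups (monolayer and sandwich at days 1, 2, 3 and 8). The deposited values are log2 intensities, normalized by the authors before deposit. RMA and limma are named in the submitters' processing notes, and their versions and roles are not given in the sources used here. Normalization of this kind gives all arrays nearly the same distribution, so a shift shared by most genes would not be visible.

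From these values limma 3.58.1 (R 4.3.3) was fitted to all 24 arrays with 1 mean per group, with moderated two-sided tests and Benjamini-Hochberg adjustment across 31042 probe sets (57 control probe sets were left out). An adjusted p under 0.05 made a call. Adjusted p-values are from this fit unless a sentence names another setting. The sandwich step and the difference between the steps came from the same fit. The procedure was run on simulated data with independent noise on each array. That simulation lacks the shared deviations of same-numbered arrays described below, so it does not test the fit under them. Of 31042 probe sets, 20826 had 1 gene symbol in the platform's annotation, 436 had several and 9780 had none. A gene was read from its single-symbol probe set with the highest mean, for 14217 genes in all; 4525 of these had more than 1 such probe set. Array number limits the precision, and no detection calls were used.

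The compared days, the gene lists and the genes always named were chosen with earlier results of these data known. Named were the 15 largest rises and falls among called genes with no overlap between arrays, the 4 members of each list with the smallest p, the 8 largest differences between cultures in each direction and a panel of 30 genes, of which 29 were measured. Other genes named were chosen after their values were seen, among called list members or, where not called, among genes with a motif and members of the immediate early list.

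Replicate numbers came from the sample titles. Same-numbered arrays of day 1 and day 2 deviated together from their group means (Pearson correlations of 0.64, 0.227 and 0.415 in the monolayer and 0.655, 0.646 and 0.332 in the sandwich, over the 10000 brightest probe sets), so a fit with the replicate number as a block was run beside the unblocked one. The counts in the text are from the unblocked fit, which ignores this pairing, unless the block is named. The block called 2108 probe sets between day 2 and day 1, 980 higher and 1128 lower. It called 15 actin genes higher, 15 NRF2 type genes lower and 13 ribosome biogenesis genes lower, against 11, 11 and 10. Other alternatives were only the groups compared, quantile normalization, centring, a filter on dim probe sets, limma-trend, array weights, the mean over a gene's probe sets, and each array left out. Figures were drawn with matplotlib 3.10.9.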

Additional observations from a re-analysis of the deposited data

Results flagged for a closer look

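The change from day 1 to day 2 differed between monolayer and sandwich, by limma's test of the difference, for 38 genes among the named genes and the list members called between the days. Each value here is the monolayer change minus the sandwich change on the log2 scale. It was positive for Hspa1a (2.45), Marcksl1 (1.92), Tagln (1.74), Cd24 (1.61), Dio3 (1.46), Hspb1 (1.44), Fam25a (1.44), Car3 (1.43), Adm (1.35), Cav1 (1.31), Msn (1.25), Fst (1.24), Cxcl3 (1.17), Ccn2 (1.15), Anxa1 (1.09), Myof (1.04), Zfand2a (1.03), Flna (0.96), Cryab (0.95), Ccl20 (0.95), Igfbp7 (0.93), Cnn2 (0.87), Maff (0.75), Dnajb4 (0.61), S100a11 (0.58) and Tagln2 (0.56). It was negative for Scd2 (-1.51), S1pr1 (-1.37), Acss2 (-1.36), Pemt (-1.32), Crp (-1.16), Tsx (-1.08), Ugt2b1 (-1.05), Elovl6 (-1.03), Tm7sf2 (-1.02), Slc27a5 (-0.97), Lss (-0.85) and Acly (-0.77).

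For 12 of the 38 the call was lost with 1 array left out. The adjusted p was then 0.0509 to 0.145 for Scd2, 0.0559 to 0.0621 for Tsx, 0.0554 to 0.0602 for Tagln, 0.0509 to 0.102 for Ccl20, 0.0616 to 0.158 for Cav1 and 0.0668 to 0.122 for Slc27a5. It was 0.0512 to 0.077 for Acly, 0.0513 to 0.12 for Myof, 0.0553 to 0.0837 for Anxa1, 0.0613 to 0.119 for Igfbp7, 0.0531 to 0.0883 for Tagln2 and 0.0506 to 0.182 for Maff. Each range is over the fits that lost the call. With the mean over its probe sets, Scd2 had a difference of -0.49 (adjusted p = 0.121).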

How the results depend on the processing

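The count of 1556 called probe sets between day 2 and day 1 was 3578 with array weights (1552 higher and 2026 lower, against 755 and 801), 120 with a change of at least 2-fold also required (79 higher and 41 lower), and 982 to 1428 with 1 array left out (538 to 596 higher and 394 to 859 lower). The number lower was 503 with only the groups compared. The split was 581 higher and 732 lower with arrays centred on their medians and 921 higher and 828 lower after quantile normalization. The 168 probe sets whose change differed between the cultures (113 positive and 55 negative) became 491 with array weights (257 and 234), 53 with 2-fold required (38 and 15) and 261 with the replicate number as a block, where 92 were negative. Quantile normalization gave 83 negative. Leaving out 1 array gave 115 to 158 in all, 81 to 120 positive and 27 to 66 negative. The sandwich count of 1802 was 2722 with array weights, and the monolayer count of 1560 between day 3 and day 2 was 3378 with array weights and 811 to 1556 with 1 day 2 array left out. The 264 called list members became 412 with array weights and 190 to 233 with 1 array left out. The causes were not tested, except that requiring 2-fold can only lower a count. The replicate block made 5 uncalled named genes called and ended no named call (Cebpa 1.32e-04, Myc 0.0217, Pgk1 0.0075, Psmd11 0.0406 and Fas 0.0206 as adjusted p), and changed no other named call. No named result reversed its direction under these alternatives. Of 167 called named genes 34 lost the call without 1 array and 25 under another setting. Depth does not apply to arrays, and dim probe sets, below 5.62, limit what can be seen of rare transcripts.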
